A study of Rattus norvegicus with 9 samples.

Results

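The type I interferon response genes were 38 listed genes that type I interferon induces or that carry its signal, listed by name with earlier results of these data known, with the MHC class I, IRG and GBP genes left out. Of these, 36 were among the 23953 genes of the count table, and 28 had enough reads to be tested in each comparison. RNA-seq was performed on neural stem cells (NSCs), cultured cells that give rise to neurons and glia, from the spinal cords of neonatal rats. The Con group received differentiation medium alone. The Exo group received the same medium with exosomes, small secreted vesicles, of bone marrow mesenchymal stem cells (BMSCs) that carried an empty lentiviral vector, and the pLV-Exo-Wnt5a group received it with exosomes of BMSCs transduced with a Wnt5a vector. Each group had 3 libraries, and no label gives an interferon treatment. The vector was given to the donor cells and not to the NSCs, and no check for vector carried over with the exosomes is reported. The comparison that differed in the donor's Wnt5a vector was thus pLV-Exo-Wnt5a against Exo, whereas either exosome group against Con also differed in the exosomes themselves. The labels do not say whether libraries came from separate cultures, so the p-values measure the spread between these libraries, which may be technical, and all 9 libraries carry one batch label.

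Type I interferons bind a receptor made of IFNAR1 and IFNAR2, whose kinases JAK1 and TYK2 phosphorylate transcription factors of the STAT family, among them STAT2. With IRF9, STAT2 enters a complex that binds the interferon-stimulated response element (ISRE) in promoters and turns on the interferon-stimulated genes. Many of their products sense viral RNA, attach the ubiquitin-like protein ISG15 to other proteins, or block the entry, copying and release of viruses, and others, such as USP18, limit the response. In the nervous system, astrocytes, microglia and progenitors can all respond to interferon.

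Promoter stretches around the ISRE are shown for the 4 members that rose in pLV-Exo-Wnt5a against Exo, and for Bst2, Ifitm2 and Ifit3, in which all 3 pLV-Exo-Wnt5a libraries lay above the other 6. They were picked after their values and matches had been seen, from windows with a match, because the element is the one through which these genes are known to be induced. The windows come from RefSeq, build GRCr8 of the rat, and reach from 250 bases before to 50 bases after the gene start. A symbol match to rat RefSeq was found for 27 of the 38 members. The ISRE core was searched as GAAANNGAAA on both strands, overlapping matches included, and is in capitals in each stretch, which reads 5′ to 3′ along the gene's strand. A core on the opposite strand therefore reads as its reverse complement, as in Oasl2 and Ifit3. The stretches are Oasl2 at chr12:47383317-47383346 on the minus strand, Ifitm3 at chr1:205541768-205541827 on the minus strand, Ifitm2 at chr1:205482349-205482408 on the minus strand, Lgals3bp at chr10:104127864-104127923 on the minus strand, Ifi27 at chr6:128355203-128355262 on the plus strand, Bst2 at chr16:18255058-18255117 on the minus strand, and Ifit3 at chr1:241527257-241527316 on the plus strand.
Oasl2: aaagctttggTTTCAGTTTCcaggcttgag
Ifitm3: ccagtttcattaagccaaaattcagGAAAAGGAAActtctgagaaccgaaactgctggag
Ifitm2: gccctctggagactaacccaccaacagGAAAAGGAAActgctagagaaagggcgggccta
Lgals3bp: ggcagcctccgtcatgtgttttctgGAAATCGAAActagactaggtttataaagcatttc
Ifi27: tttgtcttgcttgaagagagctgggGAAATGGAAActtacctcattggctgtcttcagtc
Bst2: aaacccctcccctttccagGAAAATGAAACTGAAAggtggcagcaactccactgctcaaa
Ifit3: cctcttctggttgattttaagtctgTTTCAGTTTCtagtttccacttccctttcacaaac

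The ISRE core stood in the window of 16 of the 27 matched members (59.3%), against 1312 of all 33469 RefSeq promoters of the same length (3.92%). It also stood in the windows of 8 of 13 matched MHC class I and antigen-loading genes (61.5%) and of 6 of 10 matched IRG and GBP GTPases, both interferon-induced families, so the share was not particular to the members. In Bst2 it occurred 2 times in overlap, and in Ifi27 2 times apart, of which the one nearer the start is printed. The windows of Irf7, Ifih1, Eif2ak2, Oas1a, Parp14, Rsad2, Ifi44 and Xaf1 also held it before the gene start, and that of Dtx3l only after it. Those of both receptors and of Stat2, Irf9, Irf1, Herc6, Trim25, Rnf213, Parp9, Mx1 and Ifi35 did not. Zbp1, Adar, Oas2, Isg15, Usp18, Trim30a, Ifit1, Ifit2, Mx2, Ifitm1 and Rtp4 had no matched entry. A match describes letters in a window, and no binding was measured.

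**Figure D1:**
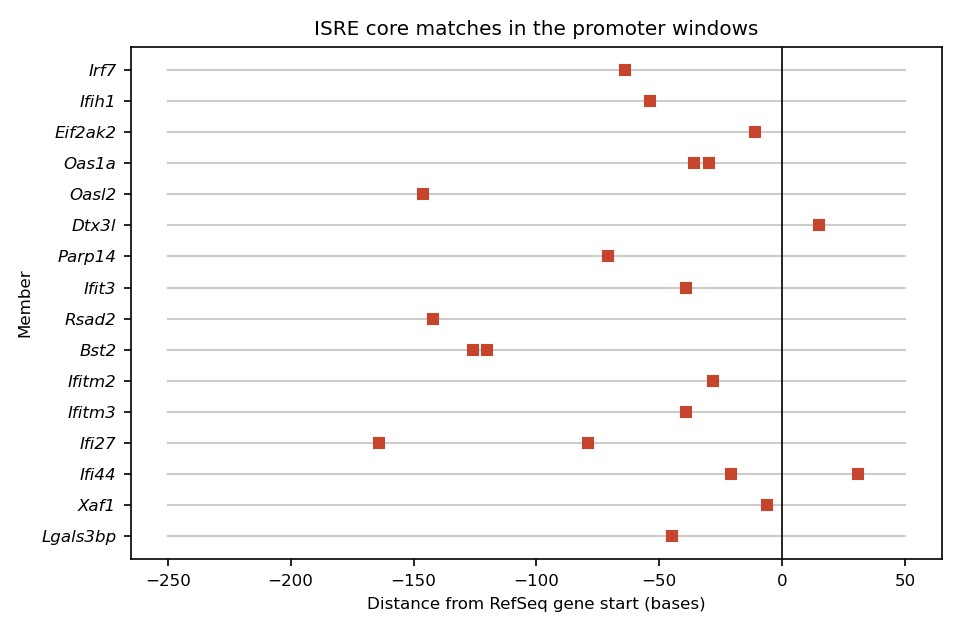
Position of each ISRE core match (squares, centre of the match) in the RefSeq promoter windows of the 16 members that hold one, in bases from the gene start (vertical line); grey lines span the window. Of the 4 members that rose, Ifitm3 and Lgals3bp have it close before the start, at -39 and -45 bases, Ifi27 at -79 and -164 and Oasl2 at -146.

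Total counts lay between 32765138 and 40427647 per library, so a gene with 0 counts in a library could still hold up to 3, or 0.0727 to 0.0913 CPM (counts scaled to a common library total), counting error alone considered. TMM factors were 0.965 in Con replicate 1 and 0.996 to 1.02 in the others. The table carries symbols and NCBI numbers of the mouse, while the labels give rat cells. How reads of near-identical family members were counted is not given in the sources used here. Values of the Ifit, Ifitm and Oas families, and of the MHC class I genes given under mouse names such as H2-K1, are uncertain in that respect. The neural stem cell markers Nes and Sox2 were measured in all 9 libraries, at 78.4 to 162 CPM and 404 to 687 CPM, and Gfap, an astrocyte filament gene, at 2204 to 4080 CPM. In bulk RNA, fewer cells of a type and less RNA per cell cannot be told apart. Levels are CPM without gene lengths and are compared only between libraries, never between genes.

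Genes of the response were higher with pLV-Exo-Wnt5a than with Exo. Oasl2, Ifitm3, Lgals3bp and Ifi27 rose at an adjusted p (Q) under 0.05, and no member fell. Groups were compared with the quasi-likelihood test of edgeR, and Q is the p adjusted by Benjamini and Hochberg's method over all genes tested. The 4 calls among 28 tested members stood beside 0.344% of 15132 tested genes that rose at this threshold and 0.0925% that fell. A log2FC above 0 was found for 26 of the 28, and their median log2FC was 0.53, where that of all genes tested was 0.00. At an unadjusted p under 0.05 with a log2FC above 0.58, 8 members passed and the background was 1.51%, and none passed with a log2FC below -0.58, where the background was 1.98%. At an unadjusted p under 0.05 whatever the log2FC, 13 members were higher (background 5.07%) and none was lower (background 6.91%). DESeq2 on the same 6 libraries called 8 members higher and none lower, where 1.2% of the 15106 genes it gave an adjusted p were called higher and 1.46% lower. In 14 members every pLV-Exo-Wnt5a library lay above every Exo library (background 7.5%), and in none did every one lie below (background 8.9%). Since a gene can pass the filter through its higher group alone, the counts over 28 members describe those that passed. With at least 10 counts in every library compared, 25 members were tested, 24 had a log2FC above 0, and the 4 calls and a median of 0.52 remained.

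**Figure D2:**
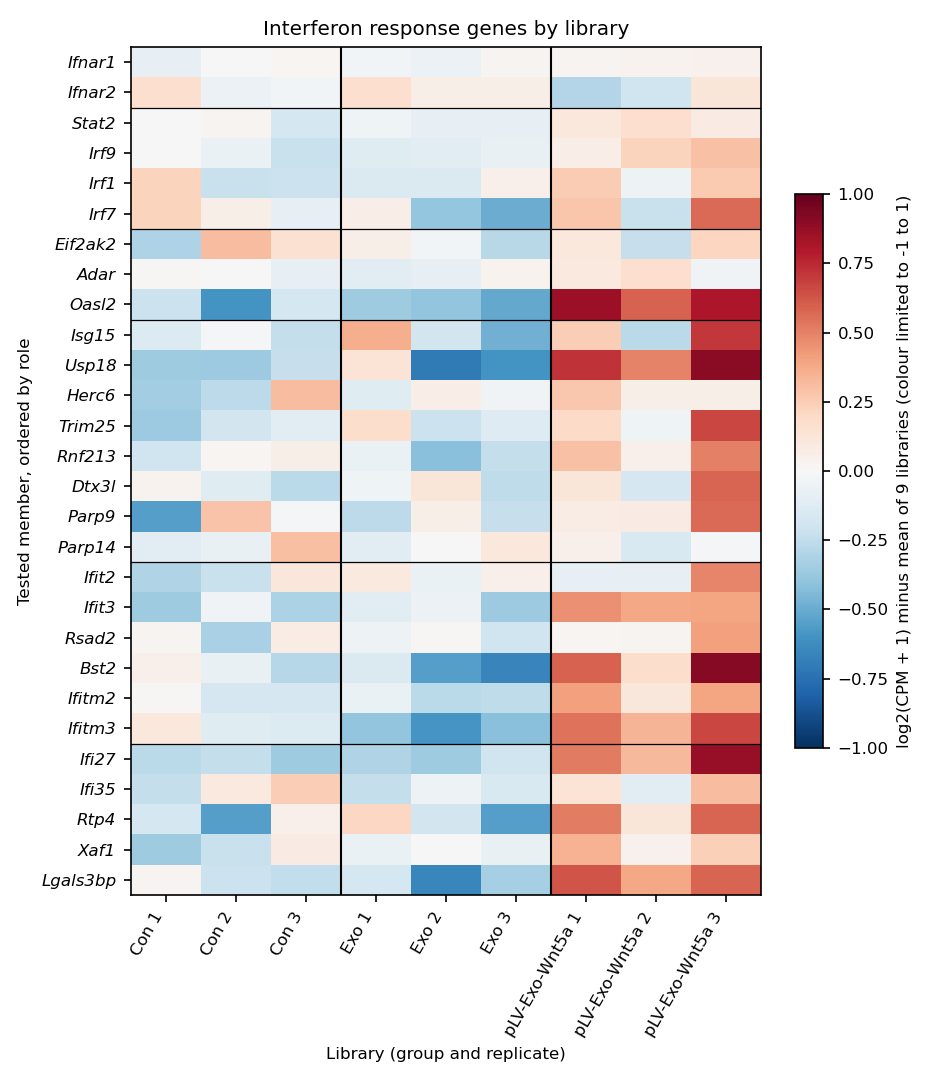
Level of the 28 tested members (rows, ordered by role, with lines between roles) in the 9 libraries (columns), as log2(CPM + 1) minus the gene's mean over the libraries, with colours limited to -1 to 1. The highest library is a pLV-Exo-Wnt5a library for 24 of 28 members, and pLV-Exo-Wnt5a replicate 3 for 17 of them.

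The libraries of the pLV-Exo-Wnt5a group differed among themselves. On the scale of log2(CPM + 1), the median deviation of the 28 members from their mean over 9 libraries was 0.25, 0.05 and 0.45 in pLV-Exo-Wnt5a replicates 1, 2 and 3. It was -0.12, -0.10 and -0.10 in the Con libraries and -0.07, -0.09 and -0.22 in the Exo libraries. Over all genes tested in each comparison, the median deviation of a library lay between -0.012 and 0.0083. Replicate 2 of the pLV-Exo-Wnt5a group was thus the closest to the other groups, and replicate 3 the farthest. The lowest library of a member was a Con library in 14 cases, an Exo library in 12 and a pLV-Exo-Wnt5a library in 2. Where the highest and lowest libraries of all genes fell was not counted. Without pLV-Exo-Wnt5a replicate 3, the median log2FC against Exo was 0.33, and Ifi27, Ifitm3 and Oasl2 still passed.

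Neither receptor gene passed. Ifnar1, which encodes a chain of the receptor, was at 106, 104 and 110 CPM in the Exo libraries and at 110, 111 and 112 CPM in the pLV-Exo-Wnt5a libraries, with 102, 109 and 110 CPM in Con. Its log2FC in pLV-Exo-Wnt5a against Exo was 0.07 ± 0.06 (SE, Q = 0.691). Ifnar2, the chain that binds interferon with the higher affinity, was at 21.6, 19.9 and 20.0 CPM in Exo, at 15.4, 16.5 and 20.8 CPM in pLV-Exo-Wnt5a and at 21.6, 18.4 and 18.7 CPM in Con. Its pLV-Exo-Wnt5a level was low in 2 libraries and within the range of the other groups in replicate 3, and the log2FC was -0.21 ± 0.12 (SE, Q = 0.558).

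The 4 transcription factors of the list each had a log2FC above 0, and none passed at Q with edgeR or DESeq2, while 2 had an unadjusted p under 0.05 with a higher level (background 5.07%). Irf9, the DNA-binding part of the complex on the ISRE, was at 19.2, 19.4 and 19.9 CPM in Exo and at 22.004, 24.7 and 25.9 CPM in pLV-Exo-Wnt5a, with 21.1, 20.0 and 17.9 CPM in Con. Stat2, its partner, was at 32.6, 31.9 and 31.8 CPM in Exo, at 36.2, 37.98 and 35.6 CPM in pLV-Exo-Wnt5a and at 33.7, 34.3 and 29.8 CPM in Con. For both, all 3 pLV-Exo-Wnt5a libraries exceeded the other 6, by a small margin, with a log2FC against Exo of 0.32 ± 0.09 (SE, Q = 0.192) for Irf9 and 0.20 ± 0.07 (SE, Q = 0.297) for Stat2. Irf7, which amplifies interferon gene transcription, varied widely, at 1.21, 0.619 and 0.505 CPM in Exo, 1.56, 0.820 and 2.13 CPM in pLV-Exo-Wnt5a and 1.48, 1.21 and 1.00 CPM in Con. Its groups overlapped, and its log2FC of 0.97 ± 0.44 (SE) had a Q of 0.423. Irf1, a factor that interferons of type I and type II induce, was at 6.80, 6.81 and 7.93 CPM in Exo and at 9.26, 7.33 and 9.32 CPM in pLV-Exo-Wnt5a (log2FC 0.28 ± 0.15, SE, Q = 0.5).

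Among the RNA sensors and enzymes, Oasl2 rose and Eif2ak2 and Adar did not pass. Oasl2 (NCBI gene number 23962), of the oligoadenylate synthetase-like family that acts against RNA viruses, was at 3.18, 3.07 and 2.75 CPM in Exo and at 8.68, 7.05 and 8.38 CPM in pLV-Exo-Wnt5a. With 3.61, 2.54 and 3.74 CPM, the Con libraries lay near the Exo libraries, and every pLV-Exo-Wnt5a library was well above all of them. The means were 3.00 ± 0.221 CPM in Exo and 8.04 ± 0.865 CPM in pLV-Exo-Wnt5a (SD, n = 3 each), and the log2FC was 1.43 ± 0.16 (SE, Q = 0.00239, 2.70-fold). Adar, an enzyme that edits adenosine in double-stranded RNA, lay between 169 and 187 CPM in Exo and between 178 and 205 CPM in pLV-Exo-Wnt5a (log2FC 0.14 ± 0.07, SE, Q = 0.444). Eif2ak2, which encodes the kinase PKR that halts translation when it binds such RNA, lay between 0.707 and 1.16 CPM in Exo and between 0.766 and 1.405 CPM in pLV-Exo-Wnt5a (log2FC 0.25 ± 0.36, SE, Q = 0.851).

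In the ISG15 system and the ubiquitin ligases, 7 of 8 tested members had a log2FC above 0, and none passed at Q with edgeR, where 3 had an unadjusted p under 0.05 (background 5.07%), while DESeq2 called Rnf213 and Usp18 (background 1.2%). Usp18, the protease that removes ISG15 and also restrains the receptor, had the highest log2FC of all members, 1.80 ± 0.44 (SE, Q = 0.116). It was at 1.50, 0.396 and 0.505 CPM in Exo, at 2.75, 2.21 and 3.27 CPM in pLV-Exo-Wnt5a and at 0.778, 0.770 and 0.943 CPM in Con. Exo replicate 1 stood above the other Exo and the Con libraries and below every pLV-Exo-Wnt5a library, and without it the log2FC was 2.61 with a Q of 0.00861. Isg15 itself overlapped between groups, at 0.930, 0.322 and 0.0758 CPM in Exo, 0.782, 0.246 and 1.45 CPM in pLV-Exo-Wnt5a and 0.363, 0.488 and 0.274 CPM in Con. Exo replicate 1 was again the highest of its group, and the log2FC of Isg15 was 0.93 ± 0.77 (SE, Q = 0.699), with 2.05 without that library and 0.24 without pLV-Exo-Wnt5a replicate 3. Rnf213, a very large ubiquitin ligase, was at 39.6, 30.8 and 35.1 CPM in Exo and at 51.0, 43.1 and 59.5 CPM in pLV-Exo-Wnt5a, with 36.0, 42.2 and 43.2 CPM in Con. Its groups were separate against Exo and touched against Con, and its log2FC against Exo was 0.56 ± 0.12 (SE, Q = 0.0824). Parp9, partner of the ligase Dtx3l, had a log2FC of 0.52 (Q = 0.395), Trim25, a ligase that acts on the sensor RIG-I, 0.38 (Q = 0.431), and Dtx3l 0.35 (Q = 0.643). Herc6, the ligase of ISG15 in mice, had 0.42 (Q = 0.752), and Parp14, an ADP-ribosyltransferase, -0.12 (Q = 0.950).

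Of the genes that restrict the entry, copying and release of viruses, all 6 tested had a log2FC above 0, and Ifitm3 rose. Ifitm3 (NCBI gene number 66141), a membrane protein that hinders virus fusion in endosomes, was at 13.9, 12.1 and 13.7 CPM in Exo and at 27.6, 23.8 and 30.1 CPM in pLV-Exo-Wnt5a. The Con libraries lay between, at 20.1, 17.0 and 16.8 CPM, and no group overlapped with another. From 13.2 ± 1.01 CPM in Exo to 27.2 ± 3.21 CPM in pLV-Exo-Wnt5a (SD, n = 3 each), the log2FC was 1.06 ± 0.11 (SE, Q = 0.00176, 2.08-fold). Ifitm2, its close relative whose window holds the same core, was at 15.5, 13.3 and 13.5 CPM in Exo, at 21.9, 17.7 and 21.7 CPM in pLV-Exo-Wnt5a and at 16.4, 14.4 and 14.3 CPM in Con. All 3 pLV-Exo-Wnt5a libraries were the highest, with a log2FC of 0.55 ± 0.12 against Exo (SE, Q = 0.0714). Bst2, or tetherin, which holds budding virions at the cell surface, was at 4.11, 2.87 and 2.58 CPM in Exo, at 7.52, 5.39 and 9.61 CPM in pLV-Exo-Wnt5a and at 4.85, 4.37 and 3.65 CPM in Con. Its pLV-Exo-Wnt5a libraries were above all others but far apart, and its log2FC of 1.25 ± 0.24 (SE) had a Q of 0.0563. Ifit3, of the family that binds foreign RNA ends, was at 0.672, 0.742 and 0.404 CPM in Exo, at 1.49, 1.37 and 1.38 CPM in pLV-Exo-Wnt5a and at 0.415, 0.770 and 0.456 CPM in Con, from 15 to 59 counts. Here the 3 pLV-Exo-Wnt5a libraries lay close together and above the other 6, and the log2FC was 1.23 ± 0.35 (SE, Q = 0.176). Rsad2, or viperin, which makes a chain-terminating nucleotide, was at 0.362, 0.421 and 0.227 CPM in Exo and at 0.429, 0.438 and 0.872 CPM in pLV-Exo-Wnt5a (log2FC 0.80 ± 0.49, SE, Q = 0.579), and only replicate 3 was well above the Exo libraries. Ifit2 had a log2FC of 0.20 (Q = 0.874), with its highest level, 2.06 CPM, in the same library.

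Lgals3bp and Ifi27 rose among the other induced genes. Lgals3bp (NCBI gene number 19039), a secreted glycoprotein that binds galectins, was at 7.62, 5.20 and 6.77 CPM in Exo and at 14.1, 11.8 and 13.6 CPM in pLV-Exo-Wnt5a, with 8.98, 7.39 and 7.24 CPM in Con. Every pLV-Exo-Wnt5a library exceeded the other 6, and the log2FC was 1.03 ± 0.15 (SE, Q = 0.0166, 2.04-fold). Ifi27 (NCBI gene number 52668), a small hydrophobic membrane protein, was at 10.2, 9.82 and 11.0 CPM in Exo, at 18.8, 16.3 and 24.3 CPM in pLV-Exo-Wnt5a and at 10.5, 10.7 and 9.83 CPM in Con. The Con and Exo libraries overlapped, all pLV-Exo-Wnt5a libraries were higher, and the log2FC against Exo was 0.95 ± 0.15 (SE, Q = 0.0197, 1.93-fold), just under the fold change of 2 that the other 3 calls passed. With 1 library left out, Oasl2 and Ifitm3 passed in 6 of 6 fits, Ifi27 in 4 and Lgals3bp in 3. Ifi27 was lost without Exo replicate 2 (Q = 0.164) or pLV-Exo-Wnt5a replicate 1 (Q = 0.068), and Lgals3bp without Exo replicate 2 (Q = 0.113) or pLV-Exo-Wnt5a replicate 1 (Q = 0.0856) or 3 (Q = 0.0592). Rtp4, a receptor transporter, was at 3.00, 2.05 and 1.36 CPM in Exo, at 3.94, 2.76 and 4.19 CPM in pLV-Exo-Wnt5a and at 2.08, 1.36 and 2.59 CPM in Con (log2FC against Exo 0.78 ± 0.29, SE, Q = 0.321). Xaf1, which binds the apoptosis inhibitor XIAP, had few counts, from 2 to 28, and a log2FC of 0.89 ± 0.45 (SE, Q = 0.492), and Ifi35 had 0.46 (Q = 0.590).

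**Figure D3:**
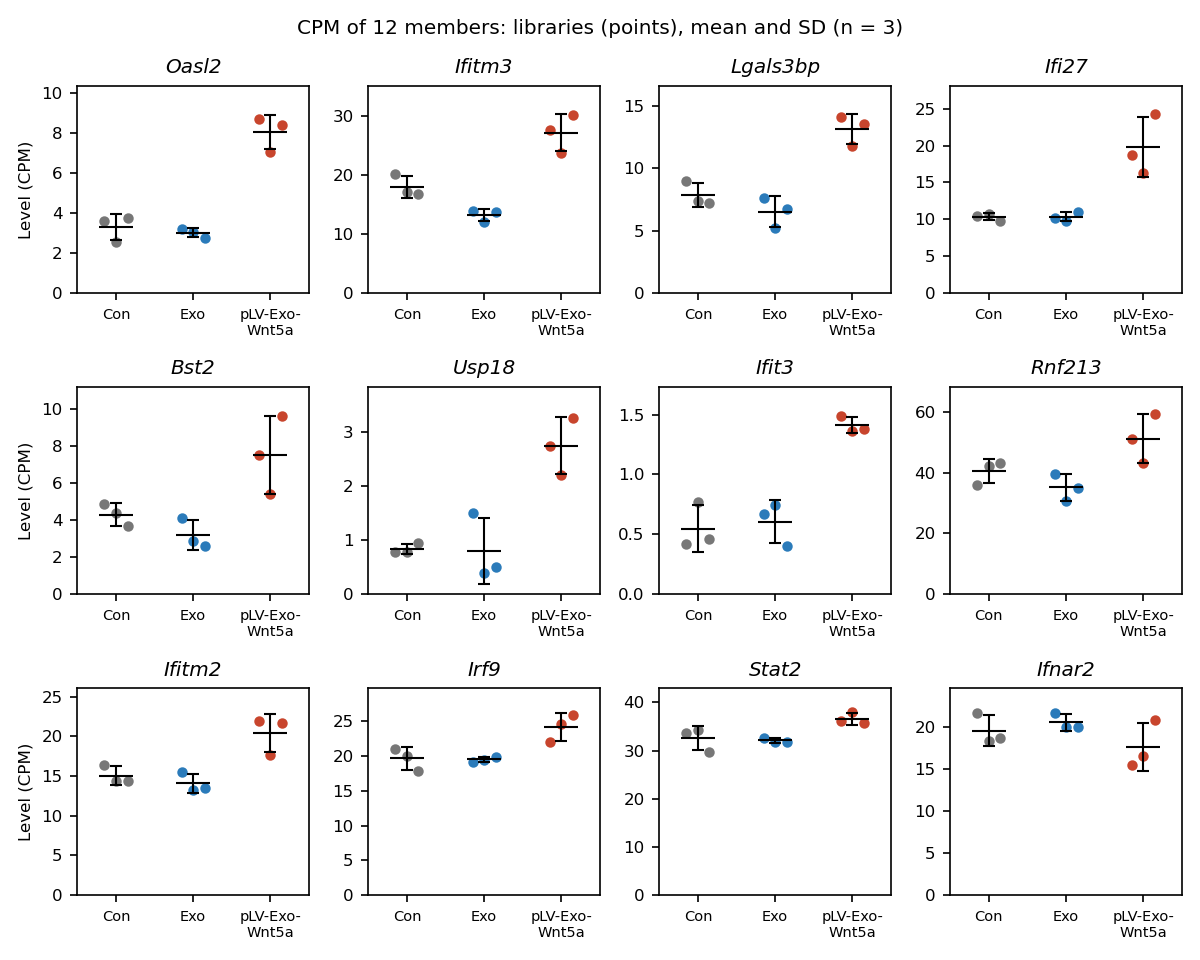
Level in CPM of 12 members in each library (points), with the group mean (dash) and SD (bars, n = 3); every axis starts at 0. In Oasl2, Ifitm3, Lgals3bp and Ifi27 (top row) the pLV-Exo-Wnt5a libraries lie above all others, whereas in Ifnar2 (last panel) the groups overlap.

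Against the Con group, the pLV-Exo-Wnt5a libraries were higher in most of these genes too, and edgeR called none at Q. This comparison shares its pLV-Exo-Wnt5a libraries with the one above, so the values of both are given side by side and not as independent evidence. Of the 28 tested members, 0 passed at Q, where 0.0795% of 15089 genes rose, and 13 had an unadjusted p under 0.05, each with a positive log2FC (background of higher genes 4.2%). DESeq2 on the same libraries called 5 members, Ifi27, Ifitm3, Lgals3bp, Oasl2 and Usp18, all higher, where 0.329% of 14601 genes were called higher. A positive log2FC was found in 25 members, with a median of 0.45 against 0.00 for all genes. At an unadjusted p under 0.05 and a log2FC above 0.58, 9 members passed (background 1.46%), and none did below -0.58 (background 0.696%). The pLV-Exo-Wnt5a libraries lay wholly above the Con libraries in 13 members (background 7.67%) and wholly below in none (background 9.41%).

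The lowest Q values against Con belonged to Oasl2, with a log2FC of 1.28 ± 0.20 (SE, Q = 0.0508), Usp18, with 1.72 ± 0.29 (SE, Q = 0.0684), and Ifi27, with 0.93 ± 0.16 (SE, Q = 0.0787). Without Con replicate 3, Oasl2 passed (Q = 0.0376), the single call of the 6 fits with a library left out. Lgals3bp had a log2FC of 0.73 ± 0.16 (SE, Q = 0.222), Ifitm3 of 0.59 ± 0.14 (SE, Q = 0.269), Bst2 of 0.80 ± 0.23 (SE, Q = 0.431) and Ifit3 of 1.35 ± 0.37 (SE, Q = 0.399). The mean Exo levels of Ifitm3 and Bst2 lay under their mean Con levels (13.2 against 18.0 CPM and 3.19 against 4.29 CPM), while those of Ifi27 were 10.3 CPM in both groups. Rtp4 had 0.85 ± 0.28 (SE, Q = 0.506), with every pLV-Exo-Wnt5a library above the Con libraries, whereas Xaf1 (1.43 ± 0.65, SE, Q = 0.595) and Isg15 (1.13 ± 0.59, SE, Q = 0.642) had wide errors. At the lower end were Parp14 (-0.31 ± 0.55, SE, Q = 0.887), Ifnar2 (-0.16 ± 0.15, SE, Q = 0.774) and Eif2ak2 (-0.06 ± 0.39, SE, Q = 0.975). The median of the members depended on pLV-Exo-Wnt5a replicate 3, without which it was 0.27.

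Exosomes of BMSCs with the empty vector gave no member that passed against the Con group. None of the 28 was called at Q by edgeR, where 0.00664% of 15070 genes, 1 gene, passed in either direction, and 1 member, Ifitm3, had an unadjusted p under 0.05, with a lower level in Exo. Over all genes at that p, 8.92% were higher and 6.01% lower. A log2FC above 0 was found in 9 members and one below 0 in 19, and the median was -0.04 where that of all genes was 0.00. Past a log2FC of 0.58 in size at an unadjusted p under 0.05, the members numbered 0 upward (background 3.56%) and 0 downward (background 0.909%). The Exo libraries lay wholly above the Con libraries in 0 members (background 10.9%) and wholly below in 1 (background 12.4%), again Ifitm3. Its log2FC was -0.46 ± 0.13 (SE, Q = 0.265), and DESeq2 fitted on all 9 libraries called it (Q = 0.0379, with 0.898% of genes called lower), whereas DESeq2 on the 6 libraries called none. Irf7 had the lowest log2FC, -0.67 ± 0.40 (SE, Q = 0.417), and Bst2 had -0.44 ± 0.23 (SE, Q = 0.374). The highest values were those of Xaf1 (0.55 ± 0.68, SE, Q = 0.690), Ifit2 (0.29 ± 0.33, SE, Q = 0.669) and Isg15 (0.21 ± 0.71, SE, Q = 0.896). With 1 library left out, Xaf1 ran from 0.081 without Con replicate 1 to 1.51 without Con replicate 3, and Ifit2 from 0.13 to 0.56 without the same libraries. Ifi27 (-0.01 ± 0.13, SE) and Oasl2 (-0.14 ± 0.22, SE) lay near 0 with small errors, whereas the errors of Isg15 and Xaf1 were as wide as most differences in the list.

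**Figure D4:**
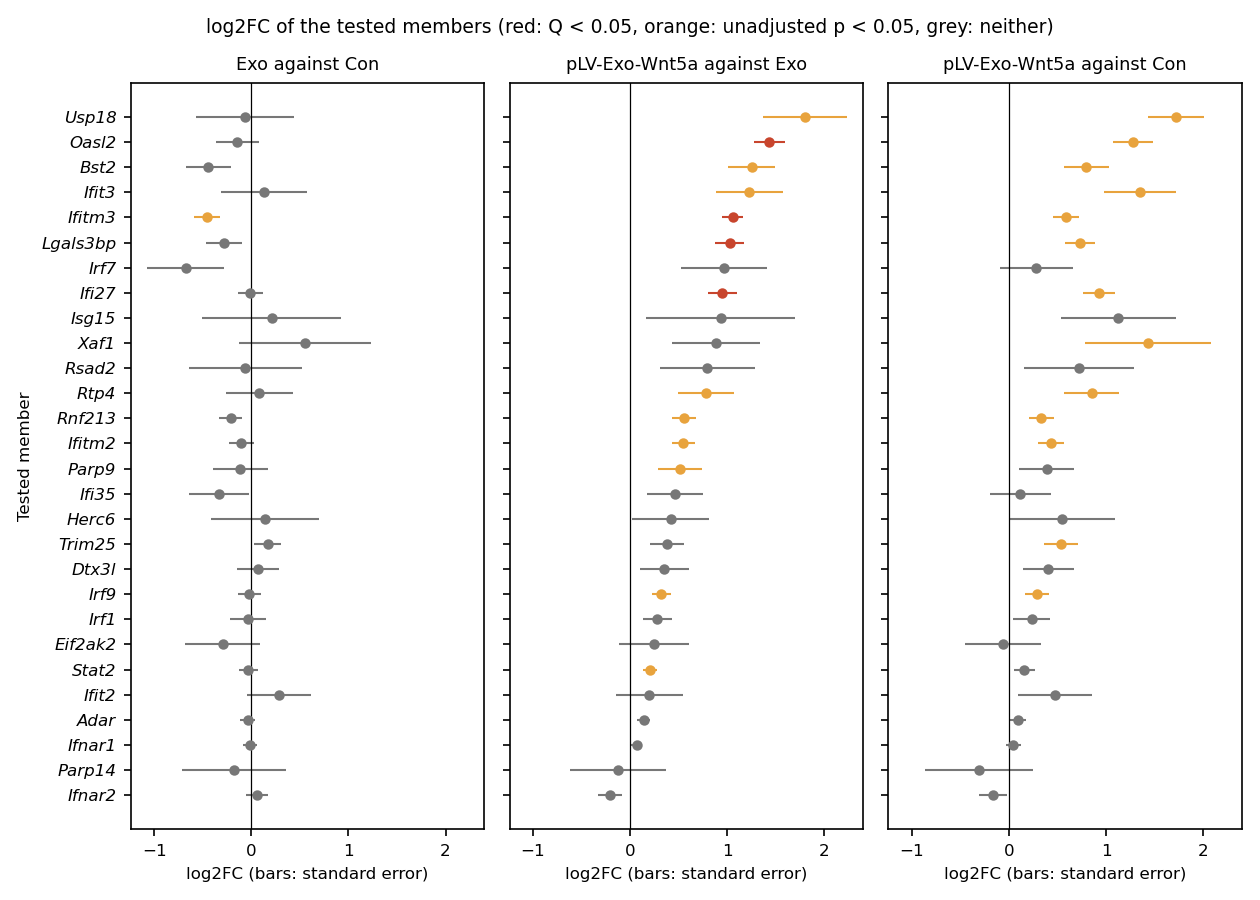
The log2FC of the 28 tested members in the 3 comparisons (points), with the standard error (bars), ordered by pLV-Exo-Wnt5a against Exo. Red marks Q under 0.05, found for 4 members in the middle panel, orange an unadjusted p under 0.05 alone, and grey neither; the pLV-Exo-Wnt5a libraries enter both the middle and the right panel.

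The 8 members with too few reads to be tested are given as summed counts over the 3 libraries of Con, Exo and pLV-Exo-Wnt5a. Ifit1, of the family of Ifit3, had 1, 14 and 37 counts, of which 24 were in pLV-Exo-Wnt5a replicate 3. Ifi44, another induced gene, had 0, 3 and 15, with 9 in 1 pLV-Exo-Wnt5a library. The oligoadenylate synthetases Oas1a and Oas2, which make the activator of RNase L, had 5, 3 and 20 and 4, 3 and 10. These 4 genes had their highest sum in the pLV-Exo-Wnt5a group, as had the ubiquitin ligase Trim30a, with 4, 7 and 12. In contrast, Ifih1, which encodes the RNA sensor MDA5, had 26, 6 and 13, Ifitm1 had 14, 3 and 8, and Zbp1, a sensor of Z-form nucleic acids, had 5, 2 and 0. At most 24 counts in a library stood behind any of these values, and no difference was tested. Mx1 and Mx2, GTPases that trap viral nucleocapsids, have no row in the table and were not analysed here.

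The rest of the pathway, from lists written with earlier results of these data known, moved unevenly in pLV-Exo-Wnt5a against Exo. The MHC class I and antigen-loading genes, which interferon also induces, had 19 of 20 tested members with a log2FC above 0, a median of 0.52 and 6 calls at Q (background 0.344%), or 9 with DESeq2 (background 1.2%). The calls of edgeR were H2-D1 (0.94), H2-Q4 (1.81), H2-K1 (1.11), the transactivator Nlrc5 (1.43), the immunoproteasome subunit Psmb8 (1.35) and B2m (0.80), with Q from 0.000155 to 0.0427. Against Con, the median was 0.30 with 2 calls by edgeR (background 0.0795%), H2-D1 (0.72) and H2-Q4 (1.44), and 4 by DESeq2 (background 0.329%), these with B2m and H2-K1. In Exo against Con it was -0.16 with no call by edgeR or DESeq2 and 6 genes lower at an unadjusted p under 0.05 (background 6.01%). Among the IRG and GBP GTPases, which attack the membranes around intracellular pathogens, 7 of 8 had a log2FC above 0 against Exo, the median was 0.70, and Gbp2 rose (log2FC 1.52, Q = 0.0246), while DESeq2 called Gbp2, Igtp and Irgm1. Against Con their median was 1.29 over 7 tested genes, with 6 at an unadjusted p under 0.05 and a log2FC above 0.58 (background 1.46%), no call by edgeR and 3 by DESeq2 (background 0.329%), Gbp2, Irgm1 and Irgm2. In Exo against Con it was -0.001 over 7 tested genes, with no call by edgeR or DESeq2. There Irgm2 (log2FC 0.83) and Gbp7 (2.41, from 0 to 24 counts) passed the same unadjusted threshold (background 3.56%), and none passed it downward (background 0.909%).

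Another list of 86 other interferon-induced genes, 42 of them tested, had a median log2FC of only 0.15 against Exo and 0.17 against Con, and edgeR called none. Against Exo, 34 had a log2FC above 0 and 8, each of them higher, an unadjusted p under 0.05 (background 5.07% higher and 6.91% lower), and the chemokine gene Cxcl10, the single call of DESeq2, had 1.36 (Q = 0.139 with edgeR). The genes upstream, from RNA and DNA sensors to kinases and inhibitors, had a median of 0.08 over 28 tested genes and no call by edgeR, with an unadjusted p under 0.05 in 5 higher and 1 lower gene, beside the same background. The receptor's kinases Jak1 and Tyk2 had a log2FC of -0.12 and 0.06. Dhx58, a relative of RIG-I that interferon induces, had 1.19 (Q = 0.182), and the signalling inhibitor Socs3 had 0.77 (Q = 0.114). DESeq2 called Socs3 and Rigi, the gene of the sensor RIG-I. Of 21 interferon genes, 1 was in the table, Ifne, with 1 count in 1 pLV-Exo-Wnt5a library.

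Markers of microglia and macrophages, cells that share the spinal cord with NSCs and respond to interferon, moved with the members in 1 comparison. Of 16 markers, 15 were in the table and 12 tested, and 11 of 12 had a log2FC above 0 in pLV-Exo-Wnt5a against Exo, with a median of 0.84, 7 past an unadjusted p of 0.05 and a log2FC of 0.58 (background 1.51%) and none at Q with edgeR. DESeq2 called C1qa, C1qb, C1qc, Csf1r and Laptm5 higher, 5 of the 12 (background 1.2%). Aif1, Tyrobp and Cd68 had a log2FC of only 0.13, 0.27 and 0.30, and Trem2 had -0.42. Their summed level was 16.1 to 17.8 CPM in Exo and 25.4 to 34.7 CPM in pLV-Exo-Wnt5a, but 29.2 to 30.1 CPM in Con. Against Con, the pLV-Exo-Wnt5a group therefore had a marker median of 0.00, with 6 of 12 above 0, where the members' median was 0.45. There 1 of the 12 was lower at an unadjusted p under 0.05 and a log2FC below -0.58 (background 0.696%), and 0 were higher past 0.58 (background 1.46%). In Exo against Con the marker median was -0.55, with 11 of 12 below 0, where the members' median was -0.04, and DESeq2 called C1qa, C1qb and C1qc lower, as it did 0.421% of all genes given an adjusted p. Over the libraries of the pLV-Exo-Wnt5a group, the marker sum was lowest in replicate 3, 25.4 CPM, in which 17 of 28 members were highest. None of the 15 was at 0 in all libraries of a group, though Ptprc had 0 to 6 counts and P2ry12 0 to 12.

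Markers of other cell types also differed between groups and libraries. In replicates 1, 2 and 3 of the pLV-Exo-Wnt5a group, the summed level was 4075, 3483 and 4514 CPM for 9 neural stem cell markers, 6653, 6576 and 6908 CPM for 8 astrocyte markers and 28.2, 26.4 and 29.2 CPM for 11 endothelial and fibroblast markers, the order in which the members' median deviation stood. It had the opposite order, 3269, 3534 and 2773 CPM, for 9 neuron markers, and neither order, 2580, 2695 and 2860 CPM, for 10 oligodendrocyte lineage markers. Abundant genes weigh most in these sums, such as Vim, at 2076, 1697 and 2358 CPM, and the neuron marker Tubb3, at 1853, 2054 and 1521 CPM. Single markers could stand in another order than their sum, as did Sox2, at 593, 442 and 508 CPM, and Gfap, at 3969, 4080 and 4028 CPM. These orders of 3 libraries were not tested. Against Exo, 7 of the 9 neural stem cell markers had a log2FC above 0 (median 0.06), and Vim, an intermediate filament gene of progenitors, rose (log2FC 0.62, Q = 0.0389), while Nes, another, had 0.54 (Q = 0.212). Of the 9 neuron markers, 6 had a log2FC below 0 (median -0.02), and Dcx, a microtubule protein of young neurons, fell (log2FC -0.60, Q = 0.0113), while Map2, of neuronal dendrites, had -0.48 (Q = 0.0759). DESeq2 called Vim higher and Dcx and Map2 lower, and also the myelin gene Mag higher, of 9 tested oligodendrocyte lineage markers with a median of -0.01 (log2FC 0.71, Q = 0.149 with edgeR). Against Con, edgeR called none of these 5 genes, with a log2FC of 0.24 for Vim, 0.20 for Nes, -0.05 for Dcx, -0.04 for Map2 and 0.03 for Mag. There DESeq2 called Gfap higher, and Hes5, a Notch target of neural stem cells, and Pdgfrb, a pericyte receptor, lower (background of lower genes 0.178%), with a log2FC of 0.66 (Q = 0.129), -0.41 (Q = 0.224) and -0.67 (Q = 0.290) in edgeR. In Exo against Con, DESeq2 called the neuronal genes Nefl and Snap25 higher (background 1.29%) and the myelin genes Mag and Mbp, with Pdgfrb, lower, where edgeR gave Mag -0.67, Mbp -0.44 and Pdgfrb -0.74, each with a Q of 0.265. Of the 8 astrocyte markers, 3 had a log2FC above 0, with a median of -0.16, and Gfap rose in pLV-Exo-Wnt5a against Exo (log2FC 0.86, Q = 3.36e-05), with a sum over the 8 of 4877 to 5005 CPM in Exo, 4987 to 6025 CPM in Con and 6576 to 6908 CPM in pLV-Exo-Wnt5a. Without Gfap, the sum over the other 7 was 2673 to 2783 CPM in Exo, 2726 to 2971 CPM in Con and 2496 to 2880 CPM in pLV-Exo-Wnt5a. Slc1a2, Slc1a3 and Gja1, which encode glutamate transporters and a gap junction protein, had a log2FC of -0.42, -0.21 and -0.29 at an unadjusted p under 0.05 and none passed at Q with edgeR, while DESeq2 called Slc1a2 and Slc1a3 lower. The part of cell composition in the members' levels was not tested beyond these values.

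**Figure D5:**
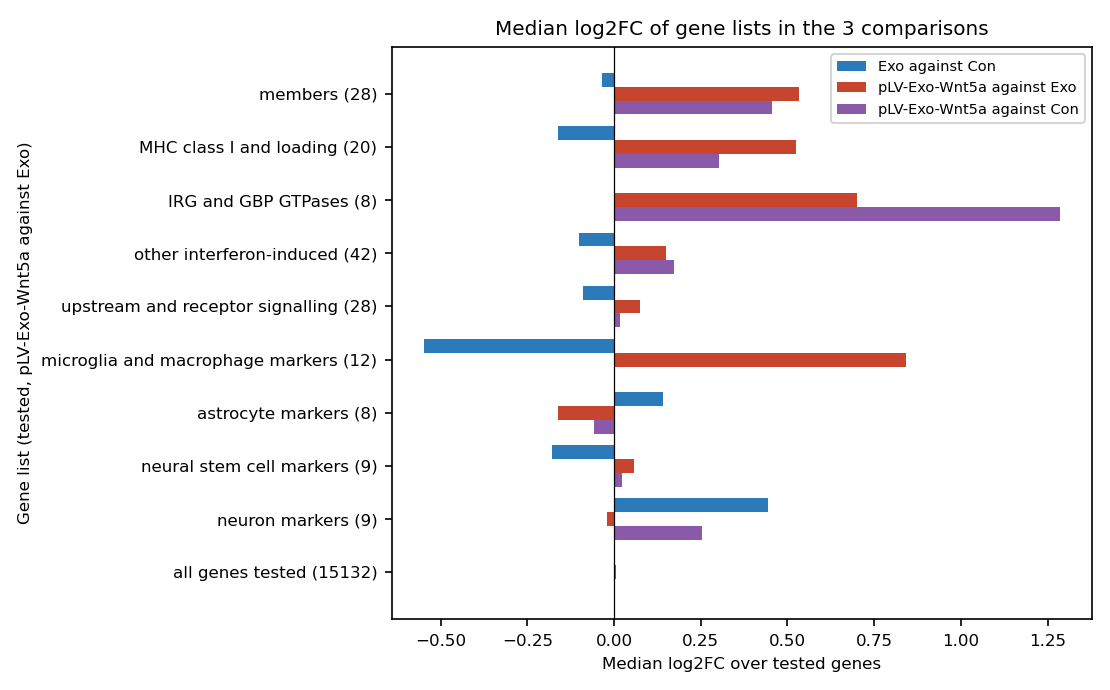
Median log2FC over the tested genes of the members, of other interferon-related lists and of cell type markers (bars, colours by comparison), with the number tested in pLV-Exo-Wnt5a against Exo in brackets and all genes tested at the bottom. The members stand at 0.53 and 0.45 where pLV-Exo-Wnt5a is compared with Exo and Con, and the microglia and macrophage markers at 0.84 and 0.00.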

How the data were processed

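The authors deposited a table of raw counts (whole numbers, no normalization) for 3 Con, 3 Exo and 3 pLV-Exo-Wnt5a libraries. The study's methods name HISAT2 for alignment after removal of low-quality reads, whereas the submitters' processing notes name Bowtie2, RSEM 1.3.1 and DESeq2 1.4.5. Genome build, annotation, strand setting and the handling of shared reads are not given in the sources used here.

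Groups were taken from the sample labels and compared in pairs. From the deposited counts, genes kept by filterByExpr were normalized by TMM and tested with edgeR 4.0.16 (quasi-likelihood test, R 4.3.3), with Benjamini-Hochberg adjustment over all genes (Q). The study used DESeq2 with a Q limit of 0.05 and fold limits of 2 and 0.5; here DESeq2 1.42.0 was an alternative. The second threshold was an unadjusted p under 0.05 with an absolute log2FC above 0.58. CPM used TMM factors over all 9 libraries, and the SE came from the test statistic. The steps were tested on simulated data. The alternatives were RLE normalization, DESeq2 on 2 groups or all 9 libraries, edgeR on all 9 libraries, 2 other filters, the replicate number as a block and leaving out each library.

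Members and gene lists were chosen with earlier results of these data known. Named with values were members past either threshold, those with the 3 highest and 3 lowest log2FC in each comparison, and a fixed set of signalling and classical response genes. Other members and list genes named beside them were chosen after their values were seen. Of the upstream list, values are reported here for the genes named only. Promoters came from RefSeq (GRCr8) by symbol.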

Additional observations from a re-analysis of the deposited data

How the results depend on the processing

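With pLV-Exo-Wnt5a against Exo, 4 members passed at Q, and the same 4 did with RLE normalization, edgeR on all 9 libraries or at least 10 counts in every library. DESeq2 on 2 groups, DESeq2 on all 9 libraries and edgeR with no filter on low counts each called 8 (these 4 with Bst2, Ifitm2, Rnf213 and Usp18), while calls over all genes were 402, 167 and 397 against 52 higher and 14 lower, and the median log2FC was 0.77, 0.77 and 0.76 over 36 members, 8 of them with few counts and with fitted values that depend on the tool. With each library left out, 2 to 7 passed, with 7 reached when pLV-Exo-Wnt5a replicate 2 was absent and 2 when Exo replicate 2 or pLV-Exo-Wnt5a replicate 1 was, and the median ran from 0.33 to 0.63. Calls over all genes in these fits ran from 19 to 96, with 75 where 7 members passed and 19 and 27 where 2 did. Against Con, 5 members passed with either DESeq2 fit or with no filter and 2 (Ifi27, Oasl2) with edgeR on all 9 libraries, against 0, and 0 to 1 with each library left out, with the median from 0.27 to 0.62. In Exo against Con, DESeq2 on all 9 libraries called 1 at Q and counted 1 past the second threshold, and leaving out a library gave 0 at Q and 0 to 2 past the second threshold, the 2 without Exo replicate 1. The cause of these shifts was not tested.

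Same-numbered libraries deviated together in none of the comparisons as a whole (r from -0.42 to 0.19 over genes), so the numbers were not taken as pairs. With the replicate number as a block, 6 members passed in pLV-Exo-Wnt5a against Exo and 3 against Con (Ifi27, Oasl2 and Usp18), while 116 of 15132 and 38 of 15089 genes were called in all. In Exo against Con the log2FC of Isg15 was -0.11 and of Rsad2 0.015.

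Some log2FC that passed in no fit changed sign when a library was left out. In Exo against Con they ran from -0.043 to 0.0021 for Ifnar1, -0.10 to 0.0050 for Stat2, -0.089 to 0.034 for Irf9, -0.12 to 0.16 for Irf1, -0.91 to 0.72 for Isg15, -0.88 to 0.25 for Usp18, -0.047 to 0.46 for Ifit3 and -0.47 to 0.22 for Rsad2. Parp14 ran from -0.31 to 0.10 against Exo, and against Con Irf7 ran from -0.049 to 0.58, Eif2ak2 from -0.34 to 0.20 and Parp14 from -0.54 to 0.23. Low counts limit Isg15, Xaf1, Rsad2, Parp14 and the 8 members not tested.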
